A study of Mus musculus with 8 samples.

Results

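A set of 10 genes that mark or maintain long-term hematopoietic stem cells (HSCs) was followed across cultures of HSCs and of the broader LSK population, with and without red blood cells (RBCs). They were chosen by name, with earlier results of these data known. The set held the surface markers Procr, Slamf1, Cd48 and Ly6a and the transcription regulators Hlf, Mecom, Mllt3 and Prdm16. It also held Fgd5 and Ctnnal1, whose expression labels HSCs in the bone marrow. All 10 of 10 were found among the 24346 gene symbols of each library. Wild-type (WT) bone marrow cells were used. LSK cells (Lin- Sca-1+ c-Kit+) hold HSCs together with multipotent progenitors, and HSCs were the CD48- CD150+ cells within LSK. Per the study's methods, the cells came from adult C57BL/6 mice, were sorted, and were then kept for 1 day in medium with thrombopoietin and stem cell factor, alone or together with RBCs that had been leukocyte-filtered and irradiated. RBCs were lysed afterwards and CD45+ cells were sorted for RNA. Each of the 4 groups (LSK cells without RBCs, LSK cells with RBCs, HSCs without RBCs and HSCs with RBCs) had 2 libraries. The labels do not say whether the 2 libraries of a group came from separate mice or cultures, so the p-values measure only the spread between these libraries, which may be technical.

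HSCs sit at the top of the blood hierarchy and keep producing all blood lineages through self-renewal, while multipotent progenitors lose that capacity and divide more often. In the mouse the SLAM receptors separate them: CD150, the product of Slamf1, is kept on HSCs, and CD48 appears as cells leave the HSC state. Sca-1, the product of Ly6a, and c-Kit define the LSK gate, and EPCR, the protein C receptor encoded by Procr, is retained on the most primitive cells. The nuclear regulators keep the HSC program: Hlf is a PAR bZIP factor linked to HSC dormancy, Mecom (Evi1) and Prdm16 are zinc-finger proteins of the PRDM family needed for HSC maintenance, and Mllt3 (AF9) is a YEATS-domain reader of acylated histones in the elongation machinery. Fgd5 encodes a guanine nucleotide exchange factor for Cdc42, and Ctnnal1 encodes alpha-catulin, a relative of alpha-catenin.

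Because the sorts used CD48 and CD150 protein, the differences of Cd48 and Slamf1 between HSCs and LSK cells follow the gate and are given as a check of the labels. Both populations were gated on Sca-1. The remaining 7 genes were used in neither sort.

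The genes lie on 7 chromosomes of the mouse build GRCm38 (mm10), by the GENCODE M21 annotation. Cd48 (chromosome 1, 171682009 to 171705258) and Slamf1 (chromosome 1, 171767127 to 171801184) are neighbours on the plus strand, 61869 bases apart with 5 annotated genes between them. Procr spans 155751117 to 155755471 on chromosome 2 (plus strand), and Fgd5 spans 91978878 to 92076004 on chromosome 6 (plus strand). Mecom (chromosome 3, 29951296 to 30548008), Hlf (chromosome 11, 90336536 to 90390895) and Ly6a (chromosome 15, 74994877 to 74998031) lie on the minus strand. Chromosome 4 holds Ctnnal1 (56810935 to 56865188), Mllt3 (87769925 to 88033364) and Prdm16 (154316125 to 154636873), all on the minus strand. Antisense genes overlap Fgd5, Mecom and Prdm16. They have no row of their own here and the library kit does not mark strand, so reads of either strand cannot be told apart for these 3 genes. Ly6a belongs to a family of similar genes, and how reads that match several of them were counted is not given in the sources used here. Values are per gene, so the long and short forms of Mecom and of Prdm16 were not separated.

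RefSeq (GRCm38.p6) promoter windows were matched for 9 of the 10 genes, in 11 windows (Mecom and Mllt3 had a pair each). The 250 bases before the start are shown for Cd48 and Slamf1, the neighbouring genes of one receptor family that carry the sort, and for Fgd5, the unsorted gene with the widest gap between HSCs and LSK cells when RBCs were present. Capitals mark matches, on either strand, to 4 short motifs of blood transcription factors: AGATAA for GATA factors, AGGAAG for ETS factors, TGTGGT for RUNX factors and TGGGAA for RBPJ. These motifs do not overlap each other in the windows printed.
Cd48, chr1:171681742-171681991, plus strand: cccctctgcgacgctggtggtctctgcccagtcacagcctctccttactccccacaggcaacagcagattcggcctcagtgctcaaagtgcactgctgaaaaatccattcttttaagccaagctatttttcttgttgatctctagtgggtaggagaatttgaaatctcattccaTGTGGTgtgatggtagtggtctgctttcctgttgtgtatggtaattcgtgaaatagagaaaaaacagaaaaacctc
Slamf1, chr1:171766882-171767131, plus strand: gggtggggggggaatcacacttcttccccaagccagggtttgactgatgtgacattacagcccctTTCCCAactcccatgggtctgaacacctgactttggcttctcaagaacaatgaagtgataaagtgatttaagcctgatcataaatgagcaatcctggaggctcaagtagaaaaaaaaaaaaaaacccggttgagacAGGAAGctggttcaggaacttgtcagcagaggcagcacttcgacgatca
Fgd5, chr6:91978715-91978964, plus strand: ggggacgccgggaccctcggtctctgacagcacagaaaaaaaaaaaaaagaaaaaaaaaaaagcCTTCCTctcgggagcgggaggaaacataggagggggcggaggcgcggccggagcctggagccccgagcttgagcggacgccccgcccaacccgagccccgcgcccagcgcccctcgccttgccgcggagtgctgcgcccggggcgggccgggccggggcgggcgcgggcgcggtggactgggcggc
Cd48 held 1 RUNX match, Slamf1 held 1 ETS and 1 RBPJ match, and Fgd5 held 1 ETS match. Of all 32851 RefSeq windows of this length, 14.0% held the RUNX motif, 29.5% the ETS motif, 21.6% the RBPJ motif and 9.99% the GATA motif. The GATA motif was in none of the 11 windows, the RBPJ motif was also in that of Hlf, and a match describes letters only. The windows also differed in CpG content: Cd48 had 4 CpG dinucleotides and Slamf1 had 3, against 31 in Fgd5, 26 in Hlf, 22 in Prdm16, 18 in Ctnnal1, 13 in Procr, 14 and 8 in the windows of Mecom and 23 and 4 in those of Mllt3, with a median of 6 over all windows.

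Expression was given as FPKM (fragments per kilobase of transcript, scaled to the mapped total of its library). Such a value is per length, so levels can be set beside each other between genes. FPKM summed to between 680942 and 752107 per library. In genes with 1 annotated transcript, the most common low value of FPKM times length was sought within a preset range and taken as 1 fragment. Of the 739 to 1149 genes used per library, 73 to 167 lay near it. This put the depth at an estimated 10500000 to 13500000 fragments per library, an estimate that the preset range bounds. At that depth Slamf1, which has 1 coding transcript, rested on an estimated 87 to 370 fragments per library, a counting error of at most 10.7%. Replicate libraries of a group correlated at Pearson r 0.979 to 0.983 across genes. Kit, the receptor that defines c-Kit+ cells, was at 90.8 to 137 FPKM and Ptprc, which encodes CD45, at 38.3 to 50.6 FPKM in every library. Neutrophil markers moved with both factors compared: the summed FPKM of 10 of them was 8.54 to 10.6 in HSCs without RBCs, 46.4 to 254 in HSCs with RBCs, 129 to 221 in LSK cells without RBCs and 365 to 572 in LSK cells with RBCs, and none of the 10 was at 0 throughout. The 7 monocyte or macrophage markers summed to 60.9 to 75.1 FPKM in LSK cells alone and 117 to 119 in LSK cells with RBCs, and to 89.5 to 112 in HSCs of either condition. Cd68 made up most of the HSC sums, at 85.9 to 107 FPKM. All 3 markers tested were higher with RBCs in both populations, 1 of them called in each. Csf1r had 2.53 and 2.81 FPKM in HSCs alone and 7.07 and 9.37 in HSCs with RBCs. Of 6 red blood cell markers tested, 3 were called higher with RBCs in HSCs and 1 in LSK cells, although the sum over all 8 overlapped between the conditions in both populations (281 to 339 FPKM in HSCs and 102 to 178 in LSK cells). The alpha-globin gene Hba-a1, which shares reads with a near-identical copy, was called in both, with 0.083 and 1.40 FPKM in HSCs alone, 116 and 88.7 in HSCs with RBCs, 0.86 and 1.53 in LSK cells alone and 32.9 and 43.1 in LSK cells with RBCs. The 5 platelet or megakaryocyte markers summed to 150 to 183 FPKM in HSCs alone, 142 in both HSC libraries with RBCs, 70.7 to 161 in LSK cells alone and 47.8 to 57.3 in LSK cells with RBCs. Pf4 made up most of the HSC sums. It had 130 and 37.8 FPKM in LSK cells alone and 13.5 and 19.1 with RBCs. In HSCs 3 of the 5 were higher with RBCs and 2 lower, with 1 called higher. In LSK cells 2 were higher and 3 lower, with 1 called lower. The 5 B cell markers summed to 34.7 to 40.3 FPKM in HSCs of either condition. Their sums in LSK cells were 38.6 to 41.1 FPKM alone and 49.5 to 51.6 with RBCs. Cd79b made up most of these sums, and 3 of the 5 were below 1 FPKM in every library. Of the 2 tested, 0 had an adjusted p under 0.05 for RBCs in either population. For the red blood cell markers, RNA of the added RBCs cannot be told apart from RNA of the sorted cells. The part of all these markers in the differences described here was not tested. The 5 T cell markers summed to at most 1.06 FPKM in any library. In bulk RNA, fewer cells of a type and less RNA per cell cannot be told apart.

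**Figure D1:**
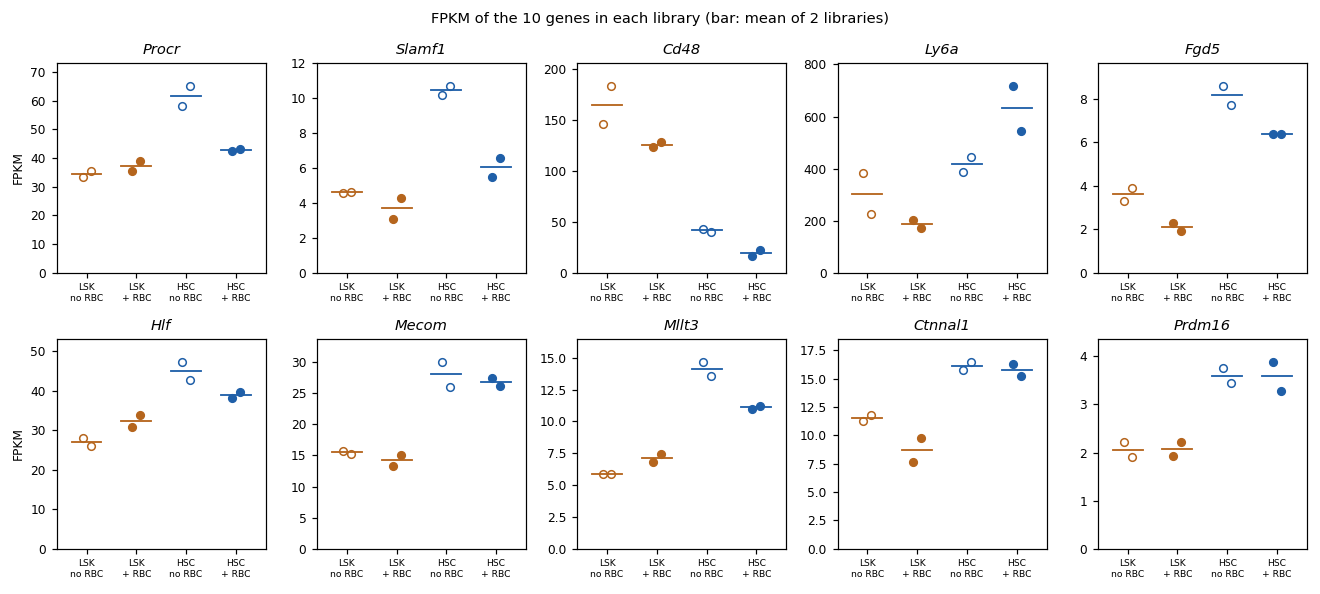
FPKM (linear axis from 0, a scale per gene) of the 10 genes in the 8 libraries, LSK cells in brown and HSCs in blue, open points without and filled points with RBCs, bars at the mean of 2 libraries. Cd48 is higher in every LSK library than in every HSC library, and the other 9 genes are higher in every HSC library.

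All 10 genes separated the 2 populations. The 4 HSC libraries and the 4 LSK libraries did not overlap for any of them, against 27.3% of the 12003 genes tested, and 9 were higher in HSCs, with Cd48 the exception. Differences were tested with limma across the 12003 genes that reached 1 FPKM in 2 or more libraries, on log2(FPKM + 1) and with all 4 groups in 1 fit. On this scale changes of low genes are understated. Averaged over both culture conditions, 10 of 10 genes had an adjusted p under 0.05 (Benjamini-Hochberg) for LSK cells against HSCs, against 32.9% of all genes tested, and 9 of them were lower in LSK cells, against 16.8%. The median difference of the 10 genes was -0.72 on the log2 scale, and that of all genes tested was 0.01. With at least a 2-fold difference as well, 3 genes passed in this average (Fgd5, Ly6a and Cd48, background 2.72%), 3 without RBCs (Mllt3, Slamf1 and Cd48, background 2.66%) and 3 with RBCs (Fgd5, Ly6a and Cd48, background 3.61%). Cd48, Slamf1 and Ly6a, which the sorts used, are among these counts. The 10 genes were also chosen with earlier results of these data known, so the counts beside the background shares are a description. Without the fold limit, 9 passed without RBCs (background 14.2%) and 8 with RBCs (background 24.4%). Leaving out any 1 library, which also lowers the degrees of freedom, kept the average at 10 of 10 and gave 7 to 8 without RBCs and 5 to 8 with RBCs. These comparisons use the same libraries in part, and they are set side by side gene by gene below.

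The sort genes followed the gate. Cd48, the SLAM family ligand that marks cells leaving the HSC state, was found at FPKM values of 147 and 184 in LSK cells cultured alone and 124 and 128 in LSK cells cocultured with RBCs. In HSCs the values were 42.7 and 40.5 alone and 16.0 and 22.8 in coculture. The lowest LSK library lay far above the highest HSC library. Its log2 difference, LSK minus HSC, was 1.96 without RBCs (SE 0.153) and 2.66 with RBCs (SE 0.153), as the sort on CD48 protein would select. Slamf1, which encodes CD150, had 4.58 and 4.63 FPKM in LSK cells cultured alone and 3.09 and 4.28 in LSK cells cocultured with RBCs. HSC libraries had 10.2 and 10.7 alone and 5.50 and 6.59 in coculture. The HSC libraries were the higher ones throughout. The gap was narrower in the presence of RBCs, but this did not pass the test of the difference of the RBC effects given below. Slamf1 differed by -1.03 without RBCs (SE 0.160) and by -0.60 with RBCs (SE 0.160). Without the second library of HSCs alone, the first of these was -0.993, just short of 2-fold, and without the first library of LSK cells with RBCs the other was -0.41 (limma adjusted p = 0.15).

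Ly6a, the Sca-1 gene that both gates use, was the most abundant of the 10. Its FPKM was 381 and 226 in LSK cells cultured alone and 204 and 170 in LSK cells cocultured with RBCs. The HSC values were 388 and 444 alone and 719 and 544 in coculture. Without RBCs the highest LSK library (381) lay just below the lowest HSC library (388), and with RBCs the populations were far apart. The log2 difference, LSK minus HSC, was -0.50 without RBCs (SE 0.219, limma adjusted p = 0.17) and -1.74 with RBCs (SE 0.219, limma adjusted p = 0.00080). The first of these was -0.87 (limma adjusted p = 0.021) without the first library of LSK cells alone and -0.12 (limma adjusted p = 0.75) without the second. Averaged over both conditions it was -1.12 (SE 0.155), and it was -0.93 without the second library of LSK cells without RBCs.

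Procr, the EPCR gene, had its wider gap without RBCs. Its FPKM was 33.4 and 35.3 in LSK cells cultured alone and 35.4 and 38.9 in LSK cells cocultured with RBCs. It stood in HSCs at 58.2 and 65.3 alone and 42.5 and 43.0 in coculture. HSCs without RBCs stood highest, followed by HSCs with RBCs, and the LSK groups lay next to each other below them. Procr differed by -0.83 without RBCs (SE 0.0861, limma adjusted p = 0.00042) and by -0.20 with RBCs (SE 0.0861, limma adjusted p = 0.13).

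Fgd5 had the largest average gap among the 7 genes used in neither sort. Its FPKM was 3.31 and 3.90 in LSK cells cultured alone and 2.27 and 1.91 in LSK cells cocultured with RBCs. In HSCs the values were 8.62 and 7.74 alone and 6.38 and 6.37 in coculture. None of the 4 groups overlapped another. The log2 difference, LSK minus HSC, was -0.995 without RBCs (SE 0.145, limma adjusted p = 0.0024), just short of 2-fold, and -1.26 with RBCs (SE 0.145, limma adjusted p = 0.00051). The mean FPKM in HSCs was 2.27 times that in LSK cells without RBCs and 3.05 times with RBCs.

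Among the transcription regulators, Mllt3 had the largest difference without RBCs. Its FPKM was 5.83 and 5.88 in LSK cells cultured alone and 6.81 and 7.45 in LSK cells cocultured with RBCs. HSC libraries had 14.7 and 13.5 alone and 11.0 and 11.2 in coculture. The log2 difference was -1.14 without RBCs (SE 0.115, limma adjusted p = 0.00033) and -0.58 with RBCs (SE 0.115, limma adjusted p = 0.0070), the latter with an adjusted p of 0.050 without the first library of LSK cells with RBCs. The gap between the populations was the smaller with RBCs.

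Hlf, the dormancy-linked PAR bZIP factor, showed the same order of groups as Mllt3. It had 28.1 and 26.1 FPKM in LSK cells cultured alone and 30.9 and 33.9 in LSK cells cocultured with RBCs. The HSC values were 47.4 and 42.6 alone and 38.2 and 39.7 in coculture. Its log2 difference was -0.71 without RBCs (SE 0.0895, limma adjusted p = 0.0012) and -0.26 with RBCs (SE 0.0895, limma adjusted p = 0.064).

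Mecom and Prdm16, the PRDM proteins, kept nearly the same gap in both conditions. Mecom had 15.8 and 15.3 FPKM in LSK cells cultured alone and 13.3 and 15.1 in LSK cells cocultured with RBCs. It stood in HSCs at 30.1 and 26.0 alone and 27.4 and 26.1 in coculture. Its log2 difference was -0.81 without RBCs (SE 0.105, limma adjusted p = 0.0014) and -0.87 with RBCs (SE 0.105, limma adjusted p = 0.00064). Prdm16, the lowest of the 10 in HSCs, had 2.21 and 1.90 FPKM in LSK cells cultured alone and 1.94 and 2.23 in LSK cells cocultured with RBCs. In HSCs the values were 3.75 and 3.44 alone and 3.89 and 3.28 in coculture. Its log2 difference was -0.59 without RBCs (SE 0.159, limma adjusted p = 0.038) and -0.57 with RBCs (SE 0.159, limma adjusted p = 0.029). For both genes the HSC libraries with RBCs overlapped those without. Leaving out single libraries raised the adjusted p of Prdm16 to as much as 0.17 in either condition, and averaged over both it was at most 0.021.

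Ctnnal1, the alpha-catulin gene, had 11.3 and 11.8 FPKM in LSK cells cultured alone and 7.66 and 9.73 in LSK cells cocultured with RBCs. HSC libraries had 15.7 and 16.5 alone and 16.3 and 15.2 in coculture. The HSC groups overlapped each other, and the LSK group with RBCs was the lowest. The log2 difference was -0.45 without RBCs (SE 0.125, limma adjusted p = 0.044) and -0.80 with RBCs (SE 0.125, limma adjusted p = 0.0023). The first of these had an adjusted p of up to 0.15 when 1 library was left out.

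**Figure D2:**
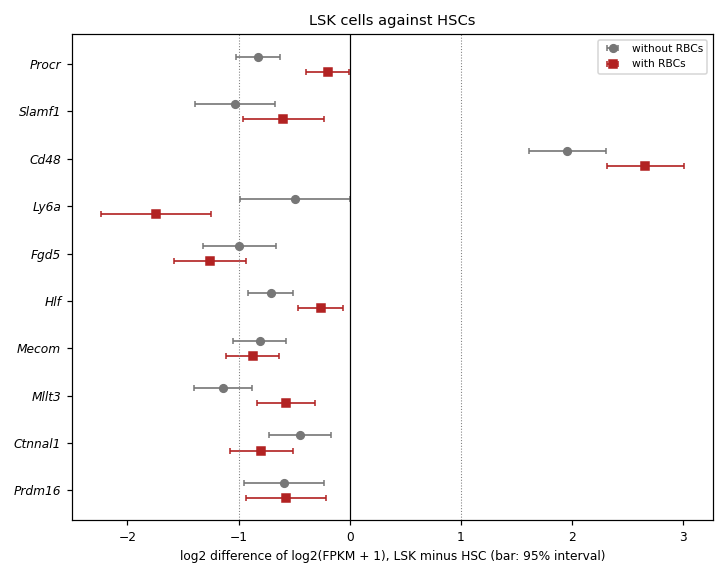
Log2 difference of log2(FPKM + 1), LSK minus HSC, for each gene without RBCs (grey circles) and with RBCs (red squares), with 95% intervals from limma and dotted lines at 2-fold. Cd48 lies to the right at 1.96 and 2.66, the other 9 genes lie to the left, and Ly6a moves furthest between conditions, from -0.50 to -1.74.

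Other genes of the HSC and progenitor states gave the setting for these values. Their lists were drawn up by name, with earlier results of these data known. Of 28 further HSC-associated genes, 26 were tested in the average of LSK cells against HSCs. Of these, 20 were lower in LSK cells and 1 was higher at an adjusted p under 0.05, with a median log2 difference of -0.62. At 2-fold or more, 6 were lower in LSK cells. Jam3, an adhesion molecule of HSCs, differed by -1.501 (SE 0.109), Mmrn1, a platelet and megakaryocyte protein, by -1.29 (SE 0.0609), Tcf15, a factor of quiescent HSCs, by -1.26 (SE 0.110), and Sult1a1, a sulfotransferase, by -1.17 (SE 0.130). The 22 genes of multipotent and lineage progenitors went the other way: 21 were higher in LSK cells at an adjusted p under 0.05, 17 of them by at least 2-fold, with a median of 2.02. Their largest differences were those of Mpo (5.96, SE 0.195), Dntt (4.94, SE 0.267), Ctsg (4.60, SE 0.180) and Elane (4.06, SE 0.315), which encode myeloperoxidase, terminal transferase and granule proteases.

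**Figure D3:**
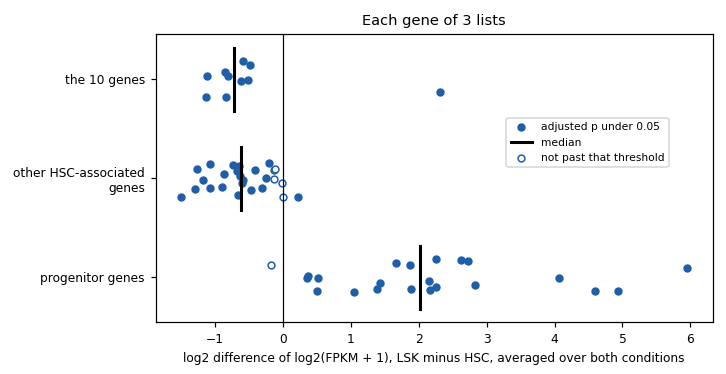
Log2 difference, LSK minus HSC, averaged over both conditions, for the 10 genes, 26 other HSC-associated genes and 22 progenitor genes, each point a gene, filled where the adjusted p was under 0.05, with a bar at the list's median. The medians lie at -0.72, -0.62 and 2.02, and Cd48 is the point at 2.31 in the first row.

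The relatives and partners of the 10 genes had values of their own in the average of LSK cells against HSCs. Of all 12003 genes tested there, 32.9% had an adjusted p under 0.05, 2013 of them lower and 1931 higher in LSK cells. The lists are small, and their counts are given beside that share as a description. In the SLAM family and its adaptors, 4 of 10 genes were tested, and 2 were higher in LSK cells by at least 2-fold. Cd244, the receptor for CD48, differed by 1.43 (SE 0.112, limma adjusted p = 2.8e-05), and Sh2d1b1, an adaptor, by 1.36 (SE 0.221, limma adjusted p = 0.0017). Sh2d1b1 had low values, at 0.84 to 3.18 FPKM in LSK cells and 0 to 0.20 in HSCs. In the PAR bZIP family with Nfil3, a repressor at the same sites, 2 of 3 were higher in LSK cells at an adjusted p under 0.05, among them Tef by 0.58 (SE 0.0967), while Nfil3 differed by -0.11. In the FGD family, 2 of 4 were higher and 1 was lower, with Fgd2 at 0.43 and Fgd3 at -0.02. In the LY6 family, 1 of 5 was lower and 1 higher. The latter was Ly6d, a gene of lymphoid-primed progenitors, which differed by 1.83 (SE 0.370, limma adjusted p = 0.0052). Ly6d had low values, at 1.70 to 8.13 FPKM in LSK cells and 0 to 1.56 in HSCs. Of 14 YEATS and elongation genes tested with Mllt3, 2 were higher and none lower, with Yeats4 at 0.02 and Cdk9 at 0.01. In the protein C pathway of Procr, 3 of 4 tested were lower in LSK cells, among them the thrombin receptor F2r by -0.27 (SE 0.0649) and the coagulation inhibitor Tfpi by -0.69 (SE 0.0841). Of 5 catenin-related genes, 2 were lower, with Ctnnb1 at -0.15 and Arhgef1 at 0.06.

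In HSCs, Cd48 and Procr differed between culture with and without RBCs by the test over all genes, though neither passed it under every alternative. Both were lower with RBCs, Cd48 by more than 2-fold, and the remaining 8 genes did not pass the test over all genes. The HSC libraries with RBCs lay below both libraries without RBCs for 6 genes (Procr, Fgd5, Hlf, Mllt3, Slamf1 and Cd48) and above both for 1 (Ly6a), against 41.7% of all genes tested with no overlap in either direction. At an adjusted p under 0.05, 2 of 10 genes passed (background 2.53%), and 1 of them passed with at least a 2-fold change (background 0.775%). The median difference of the 10 genes was -0.26 on the log2 scale, against -0.01 for all genes tested.

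In HSCs, mean Cd48 FPKM was 41.6 ± 1.54 (SD, n = 2) in culture alone and 19.4 ± 4.83 (SD, n = 2) in coculture. Cd48 fell by 1.08 on the log2 scale (SE 0.153, limma adjusted p = 0.0069). Left out in turn, 2 libraries ended the call: without the first library of HSCs with RBCs Cd48 differed by -0.84 (limma adjusted p = 0.030), short of 2-fold, and without the second library of HSCs without RBCs by -1.12 (limma adjusted p = 0.051). Without the filter on low values the adjusted p was 0.068. The neutrophil marker sum went from at most 10.6 to at least 46.4 FPKM in the same libraries. With RBCs it was mostly S100a8 and S100a9. Of the 10 markers, 2 passed an adjusted p under 0.05 in HSCs, and their part in the Cd48 difference was not tested.

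Mean Procr FPKM in HSCs was 61.7 ± 5.02 (SD, n = 2) in culture alone and 42.7 ± 0.373 (SD, n = 2) in coculture. Procr fell by 0.52 on the log2 scale (SE 0.0861, limma adjusted p = 0.015), a ratio of means of 0.692. Without the first library of HSCs with RBCs the adjusted p was 0.11, without the second 0.086, and without the second library of HSCs alone 0.099. With no filter on low values it was 0.056. Procr is also an endothelial gene: 9 endothelial markers summed to 64.1 to 70.0 FPKM in HSCs alone and 67.0 to 71.5 with RBCs, with 5 of the 9 below 1 FPKM in every library. Tie1 and Emcn made up most of these sums. Of the 4 markers tested, 2 were higher and 2 lower with RBCs in HSCs, with 0 at an adjusted p under 0.05. Their part in the Procr difference was not tested.

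Slamf1 came next in HSCs, at -0.70 (SE 0.160, 95% interval -1.06 to -0.34, limma adjusted p = 0.060), and its adjusted p was 0.033 when the test was limited to genes at 1 FPKM or more in every library. Ly6a had 0.59 (SE 0.219, 95% interval 0.10 to 1.09, limma adjusted p = 0.26), the single positive value among the 10. Mllt3 had -0.32 (limma adjusted p = 0.24), Fgd5 had -0.31 (limma adjusted p = 0.39) and Hlf had -0.20 (limma adjusted p = 0.36), each with HSC libraries that did not overlap. The intervals of Mecom (-0.30 to 0.18), Ctnnal1 (-0.31 to 0.25) and Prdm16 (-0.36 to 0.35) spanned 0, and their HSC libraries overlapped.

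In LSK cells no gene of the 10 passed the test for RBCs. None had an adjusted p under 0.05 (background 3.45%) and none was called at 2-fold (background 1.01%), while 5 had an unadjusted limma p under 0.05 (Fgd5, Hlf, Cd48, Ly6a and Ctnnal1; background 18.6%). The LSK libraries with RBCs lay above both without RBCs for 3 genes (Procr, Hlf and Mllt3) and below both for 6 (Fgd5, Mecom, Slamf1, Cd48, Ly6a and Ctnnal1), against 50.7% of all genes tested with no overlap. The median was -0.20, against -0.01 for all genes tested.

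By size, Ly6a had a difference of -0.66 in LSK cells (SE 0.219, limma adjusted p = 0.15). It rested on the spread between the LSK libraries without RBCs, at 381 and 226 FPKM: without the second of them Ly6a fell by 1.03 (limma adjusted p = 0.033), and without the first it differed by -0.28 (limma adjusted p = 0.51). Fgd5 had -0.58 (SE 0.145, 95% interval -0.90 to -0.25, limma adjusted p = 0.071), with FPKM in LSK cells at 3.61 ± 0.413 (SD, n = 2) in culture alone and 2.09 ± 0.250 (SD, n = 2) in coculture. Ctnnal1 and Cd48 each had -0.38, Slamf1 had -0.27 and Mecom had -0.12. Hlf had 0.25, Mllt3 had 0.24, Procr had 0.11 and Prdm16 had 0.01.

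**Figure D4:**
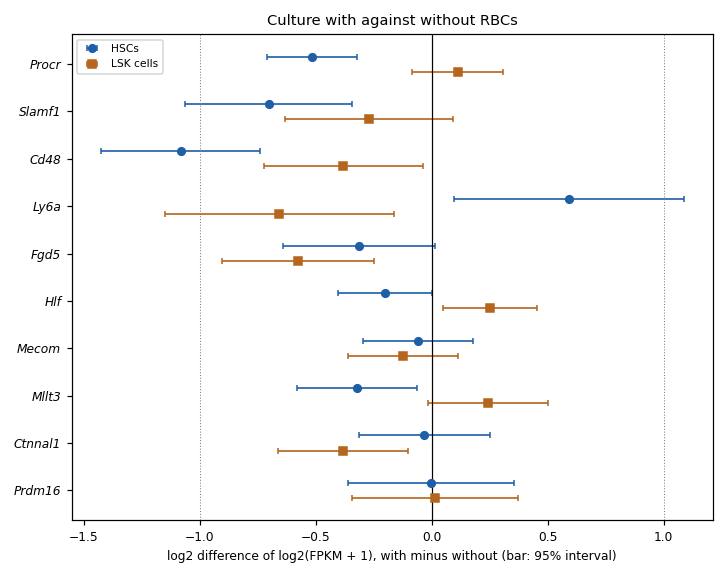
Log2 difference of log2(FPKM + 1), with minus without RBCs, for each gene in HSCs (blue circles) and LSK cells (brown squares), with 95% intervals from limma and dotted lines at 2-fold. Cd48 in HSCs lies at -1.08, Ly6a lies at 0.59 in HSCs and -0.66 in LSK cells, and Prdm16 lies at -0.01 and 0.01.

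Averaged over both cell types, 3 genes were lower with RBCs at an adjusted p under 0.05 (background 5.37%), and none reached 2-fold (background 0.75%), while 5 had an unadjusted limma p under 0.05 (background 18.6%). Cd48 differed by -0.73 (SE 0.108, limma adjusted p = 0.0048), Slamf1 by -0.49 (SE 0.113, limma adjusted p = 0.042) and Fgd5 by -0.44 (SE 0.103, limma adjusted p = 0.041). For Slamf1 and Fgd5 leaving out single libraries raised the adjusted p to as much as 0.15 and 0.13, and 1 to 2 genes of the 10 then passed. Cd48 and Slamf1 differ in opposite directions between LSK cells and HSCs, and both had lower values with RBCs.

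Whether RBCs acted differently in HSCs and LSK cells was tested as the difference of the effects, HSCs minus LSK cells. No gene of the 10 passed at an adjusted p under 0.05 (background 0.133%) or at 2-fold (background 0.108%), and 5 had an unadjusted limma p under 0.05 (Procr, Hlf, Mllt3, Cd48 and Ly6a; background 12.5%). Ly6a had the largest value, 1.25 (SE 0.310, 95% interval 0.55 to 1.95, limma adjusted p = 0.18), with higher FPKM in both HSC libraries with RBCs than without and lower FPKM in both LSK libraries with RBCs than without. Cd48 had -0.70 (limma adjusted p = 0.24), Procr -0.63 (limma adjusted p = 0.10), Mllt3 -0.56 (limma adjusted p = 0.22) and Hlf -0.45 (limma adjusted p = 0.22). Slamf1 had -0.43 (95% interval -0.94 to 0.08, limma adjusted p = 0.47). For Procr, Mllt3 and Hlf the values in the 2 populations drew together with RBCs, HSC libraries lying lower and LSK libraries higher, and this was not past the threshold over all genes.

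The companion lists were read for RBCs in the same way. Of all genes tested, 2.53% had an adjusted p under 0.05 for RBCs in HSCs and 3.45% in LSK cells. Of the 26 other HSC-associated genes, 5 were lower and 1 higher with RBCs in HSCs at an adjusted p under 0.05, and none reached 2-fold. Of the 2 with the highest mean FPKM, Ifitm1, an interferon-induced membrane protein, differed by -0.67 (limma adjusted p = 0.041). Cd9, the other, differed by -0.16 and did not pass (limma adjusted p = 0.39). In LSK cells 2 were higher and 2 lower, and Sult1a1 was higher by 1.17 (SE 0.184, limma adjusted p = 0.011). Of the 22 progenitor genes, 5 were higher and 1 lower with RBCs in HSCs: Plac8 rose by 1.35 (SE 0.0676, limma adjusted p = 2.9e-05), and Mpo fell by 1.53 (SE 0.275, limma adjusted p = 0.021). In LSK cells 4 were higher and none lower, and Ccr2, a chemokine receptor of monocytes, rose by 2.37 (SE 0.197, limma adjusted p = 0.00058). Kit fell by 0.37 in HSCs with RBCs (SE 0.0667, limma adjusted p = 0.021) and differed by -0.28 in LSK cells (limma adjusted p = 0.056), while Ptprc differed by -0.15 and 0.08.

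The genes whose log2(FPKM + 1) followed each of the 10 most closely over the 8 libraries are given as a description, since all share the same libraries and groups. Mllt3 was followed by Xbp1 (Pearson r 0.995) and F11r (0.994), and Hlf by Tmod3 (0.987) and by Mllt3 itself (0.980). Procr was followed by Serpinb6a (0.985) and B9d1 (0.980), Fgd5 by Plxdc2 (0.995) and Snap47 (0.989), and Mecom by Sept8 (0.990) and Dnajc15 (0.986). Cd48 was followed by Zfp422 (0.993) and the chemokine gene Ccl9 (0.991), Slamf1 by Tgfbr3 (0.989) and Fbxo21 (0.988), and Ly6a by Bambi (0.985) and Ctbp1 (0.985). Ctnnal1 was followed by Pycrl (0.992) and 6720489N17Rik (0.989), and Prdm16 by Cracr2b (0.995) and Zfp827 (0.989). Hlf with Mllt3 was the single pair in which one of the 10 genes was among the closest followers of another.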

How the data were processed

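RNA of 8 libraries (2 per group) was made into full-length cDNA with the SMART-Seq HT kit and Nextera XT libraries, which do not mark strand. The authors deposited 1 FPKM value per gene and library. Per the submitters' processing notes the build was mm10, and the tools named were TopHat2 2.1.1, Bowtie2 2.2.8, SAMtools 0.1.18 and Cuffdiff 2.2.1. The annotation, and whether libraries were scaled further, are not given in the sources used here. From the FPKM, differences were computed with limma 3.58.1 (R 4.3.3, trend on log2(FPKM + 1), all 4 groups in 1 fit, Benjamini-Hochberg over the 12003 genes that reached 1 FPKM in 2 or more libraries). The script was tested on simulated data. A gene was called at an adjusted p under 0.05 and at least 2-fold. An exact permutation test of 2 against 2 libraries cannot go below p = 0.333. The members and lists were chosen with earlier results of these data known. Named were all 10 members and, from each list of related genes, the called genes (at most 4, by size) or else the 2 with the highest mean FPKM, and the 2 genes closest to each member. Marker lists are given by sums and counts, and some of their genes were named for their values. The list of PRDM genes is not reported here. Depth was estimated from genes with 1 transcript in GENCODE M21, after the data were seen. It assumes FPKM were not rescaled and that the most common low value of FPKM times length stands for 1 fragment. It covers counting error only. Alternatives changed the pseudocount, the filter, the scaling, the groups fitted, the trend, the fold limit, the replicate block and the libraries kept.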

Additional observations from a re-analysis of the deposited data

Results flagged for a closer look

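Among the genes of the companion lists, 2 had RBC effects that differed between HSCs and LSK cells by the test of the difference itself and by at least 2-fold. Apoe, an apolipoprotein gene of the HSC-associated list, had a difference of the effects, HSCs minus LSK cells, of -1.12 (SE 0.133, limma adjusted p = 0.018), with 217 and 217 FPKM in HSCs alone, 135 and 115 in HSCs with RBCs, 88.9 and 87.0 in LSK cells alone and 102 and 120 in LSK cells with RBCs. Hbb-b1, a beta-globin gene of the red blood cell list, had a difference of 5.21 (SE 0.461, limma adjusted p = 0.0031), with 1.93 and 1.94 FPKM in HSCs alone, 65.1 and 31.0 in HSCs with RBCs, 0.91 and 2.12 in LSK cells alone and 0.044 and 0.014 in LSK cells with RBCs. Among the other globin genes of that list, Hba-a1 rose with RBCs in both populations, by 5.99 in HSCs (SE 0.330, limma adjusted p = 3.8e-05) and 4.16 in LSK cells (SE 0.330, limma adjusted p = 0.00047), and Hbb-b2 had 279 and 335 FPKM in HSCs alone and 120 and 158 in HSCs with RBCs, a difference of -1.14 (SE 0.348, limma adjusted p = 0.16). Hba-a2 differed by 0.82 in HSCs (SE 0.675, limma adjusted p = 0.69). These genes share reads with near-identical copies, so their separate values are uncertain. RBCs were added only to the cultures with RBCs, so globin RNA from them cannot be told apart from globin RNA of the sorted cells. Plac8, a progenitor gene, also passed the test of the difference, at 0.96 (SE 0.0955, limma adjusted p = 0.0049), as did Prtn3, a granule protease gene, at -0.89 (SE 0.0968, limma adjusted p = 0.0093), both short of 2-fold.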

How the results depend on the processing

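Of 1230 values of single genes under the alternatives, 1187 kept their direction and their side of the threshold, 8 passed it and 6 lost it. The other 29 changed sign, none of them with an adjusted p under 0.05 on either side. A change of the filter, the trend, the replicate block or the groups fitted could not alter the direction of a value. Nor could leaving out a library outside its comparison, so for part of the 1187 the direction was fixed in advance. Called genes for RBCs in HSCs numbered 0 with no filter and 2 with no fold limit. With no fold limit, the counts were 3 for RBCs averaged over both cell types, and 9, 8 and 10 for LSK cells against HSCs without RBCs, with RBCs and averaged. Leaving out 1 library at a time gave 0 to 1 called genes for RBCs in HSCs and 0 to 1 in LSK cells. Differences between the 2 replicates of a group were nearly uncorrelated from group to group (correlations of deviations -0.067 to 0.095). This cannot show whether libraries of the same replicate number were paired, which the labels do not say. The fit with the replicate block gave the counts of the fit without it. These were 1 in HSCs, 0 in LSK cells and 3 in each comparison of LSK cells with HSCs. Under the block, without the fold limit, Fgd5 for RBCs averaged (adjusted p = 0.066) and Ctnnal1 (0.059) and Prdm16 (0.055) for LSK cells against HSCs without RBCs no longer had an adjusted p under 0.05.

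The sign changes were of values near 0. Prdm16 changed sign under quantile normalization (0.0046 in HSCs, -0.0596 in LSK cells, -0.028 averaged and 0.064 for the difference of the effects) and under median scaling (-0.013 in LSK cells and -0.016 averaged). Leaving out 1 library moved the RBC effect of Prdm16 between -0.10 and 0.0905 in HSCs, -0.062 and 0.086 in LSK cells, -0.044 and 0.051 averaged, and -0.11 and 0.078 for the difference of the effects. It moved the averaged effect of Ly6a between -0.22 and 0.15 and that of Hlf between -0.014 and 0.061, the difference of the effects of Mecom between -0.038 and 0.16, and the effects in HSCs of Mecom between -0.16 and 0.040 and of Ctnnal1 between -0.079 and 0.014. Fgd5 passed 2-fold for LSK cells against HSCs without RBCs under 7 alternatives, among them a pseudocount of 0.1 (-1.16). The average of Ly6a was -0.996 under quantile normalization, short of 2-fold. With no filter and no fold limit, 0 genes passed for RBCs in HSCs, 1 for RBCs averaged, and 7 and 6 for LSK cells against HSCs without and with RBCs. The cause of these shifts was not tested, except that leaving out a library or the filter changes the libraries or genes fitted. The 2 libraries per group limit the precision of every value, and no scaling moved the median of all genes by over 0.1.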
